A study of Mus musculus with 70 samples.

Results

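The 10 genes Rasgrp1, Rasa1, Dusp1, Dusp4, Dusp5, Dusp6, Spry2, Spry4, Spred1 and Spred2 code for regulators of Ras and ERK signaling, and they were followed in the mouse dorsal hippocampus after different patterns of voluntary wheel running. They were taken by symbol from the 24346 genes listed, and all 10 were found. RNA-seq was run on 70 adult male C57BL/6J mice, 1 library per mouse from both dorsal hippocampi, with 10 libraries in each of 7 groups and 5 of these in each of 2 harvest cohorts, as the labels call them. Sedentary mice had no wheel access (0-0-0). Of the 5 exercise groups, 14-0-0 ran for 14 days, 14-7-0 and 14-14-0 then spent a delay of 7 or 14 days without a wheel, 14-7-2 ran again for 2 days after the 7-day delay, and 0-0-2 ran for 2 days alone. Sedentary and exercise mice, 6 groups in all, had a 3-min training session of Object Location Memory (OLM), too short to form a lasting memory in sedentary mice, and tissue was taken 1 h later. Home cage mice had neither wheel nor training, so a difference between home cage and sedentary is one of training and handling.

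Ras is a membrane switch that receptor and calcium signals turn on by loading it with GTP, and it starts the kinase cascade of RAF, MEK and ERK. In hippocampal neurons, ERK carries synaptic activity to the nucleus, where it drives immediate early genes and is needed for long-term memory. The pathway is held in check by GTPase activating proteins, which turn Ras off, by Sprouty and SPRED proteins, which act near the receptor and on RAF, and by dual specificity phosphatases, which dephosphorylate ERK itself. Many of these brakes are themselves transcribed after ERK is activated, so that their RNA is commonly read as a trace of past ERK activity.

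CREB and serum response factor, which synaptic activity and ERK engage, bind short motifs near the start of immediate early genes. The upstream sequences of the inducible phosphatases Dusp1 and Dusp5 are shown because they hold such motifs. Promoters of 300 bases from RefSeq (assembly GRCm38.p6, 250 bases before the start to 50 after) were at hand for 8 of the 10 genes, without Dusp4 and Spry4. Both strands were searched for the full cAMP response element TGACGTCA, its core TGACG, the serum response factor motif called the CArG box, the glucocorticoid response element and the EGR motif GCGTGGGCG. The stretches below lie before the start, on the strand of the gene, with the motifs found in capitals:
Dusp1 promoter: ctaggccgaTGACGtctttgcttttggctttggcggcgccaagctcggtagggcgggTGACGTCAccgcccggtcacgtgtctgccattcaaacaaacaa
Dusp5 promoter: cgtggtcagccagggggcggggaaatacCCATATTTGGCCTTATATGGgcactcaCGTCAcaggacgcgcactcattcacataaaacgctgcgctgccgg

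The Dusp1 stretch lies at chr17:26508573-26508672 on the minus strand, bases -200 to -101 from the start. It holds TGACGTCA at -143 and a further TGACG at -191. The full TGACGTCA, which contains the core on both strands, was present in 1.79% of 32851 promoters of the same length. The core TGACG, counted with or without the full element, was present in 20.8%. The Dusp5 stretch lies at chr19:53529035-53529134 on the plus strand, bases -110 to -11. It holds a pair of adjacent CArG boxes starting at -82 and -72 and the core TGACG, read on the other strand, at -55. A CArG box was present in 1.63% of promoters. Spred2 had the core at -51. The windows of Rasgrp1, Rasa1, Dusp6, Spry2 and Spred1 held none of the 5 motifs, and the glucocorticoid response element (0.475% of promoters) and the EGR motif (0.612%) were in none of the 8. These are matches of letters only.

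One library has to be named before the results. In sedentary replicate 6, Neurod6, a transcription factor of pyramidal neurons, reached 2.45 FPKM, while the other 69 libraries held 78.4 to 269, and Prox1, which marks dentate granule cells, was at 2.91 against 9.70 to 36.8. Its summed oligodendrocyte markers reached 6486 FPKM, above the highest other library at 4630. Library 14-7-0 replicate 4 had 10279 genes listed at 0, against 6243 to 7199 elsewhere, and 0-0-2 replicate 8 had the lowest Neurod6 of the other 69, at 78.4. The thalamus marker Tcf7l2 reached 10.9 FPKM in 14-7-2 replicate 3, against a median of 1.11 over those 69. Gad1, a marker of inhibitory neurons, was highest of the 69 in 0-0-2 replicate 4, at 219 against a median of 123. Both libraries stayed in all tests of their groups. Choroid plexus markers varied widely, with a median summed level of 2279 FPKM in 14-0-0 and 2100 in 14-14-0 but 74.2 in sedentary and 89.4 in 14-7-2. Their part in the differences below was not tested. Results against sedentary are given with and without sedentary replicate 6. In whole tissue, fewer cells of a type and less RNA per cell cannot be told apart.

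FPKM scale fragments by transcript length and by the mapped fragments of a library, so levels can be compared between genes. Over the 69 libraries without sedentary replicate 6, Rasgrp1, a calcium- and diacylglycerol-responsive activator of Ras, was by far the highest, with a mean of 200.6 FPKM and a coefficient of variation of 13.8%. The SPRED proteins, membrane-bound inhibitors of RAF activation, followed with 34.8 FPKM for Spred2 and 31.5 for Spred1. Next came Dusp6 at 27.2 FPKM, the cytoplasmic ERK phosphatase, Rasa1 at 20.7, the GTPase activating protein p120 RasGAP, and Spry2 at 18.8, a Sprouty inhibitor. The nuclear phosphatases Dusp4, Dusp5 and Dusp1 were at 11.9, 9.23 and 7.21 FPKM, and Spry4 was lowest at 3.74. Neighbors in this order were separated in all 69 libraries only for Rasgrp1 above Spred2, Spry2 above Dusp4 and Dusp1 above Spry4. Rasa1 exceeded Spry2 in 44 of 69, which leaves these 2 least separated. Dusp5 varied most between libraries, with a coefficient of variation of 28.9%, and Spred2 least, at 11.0%.

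**Figure D1:**
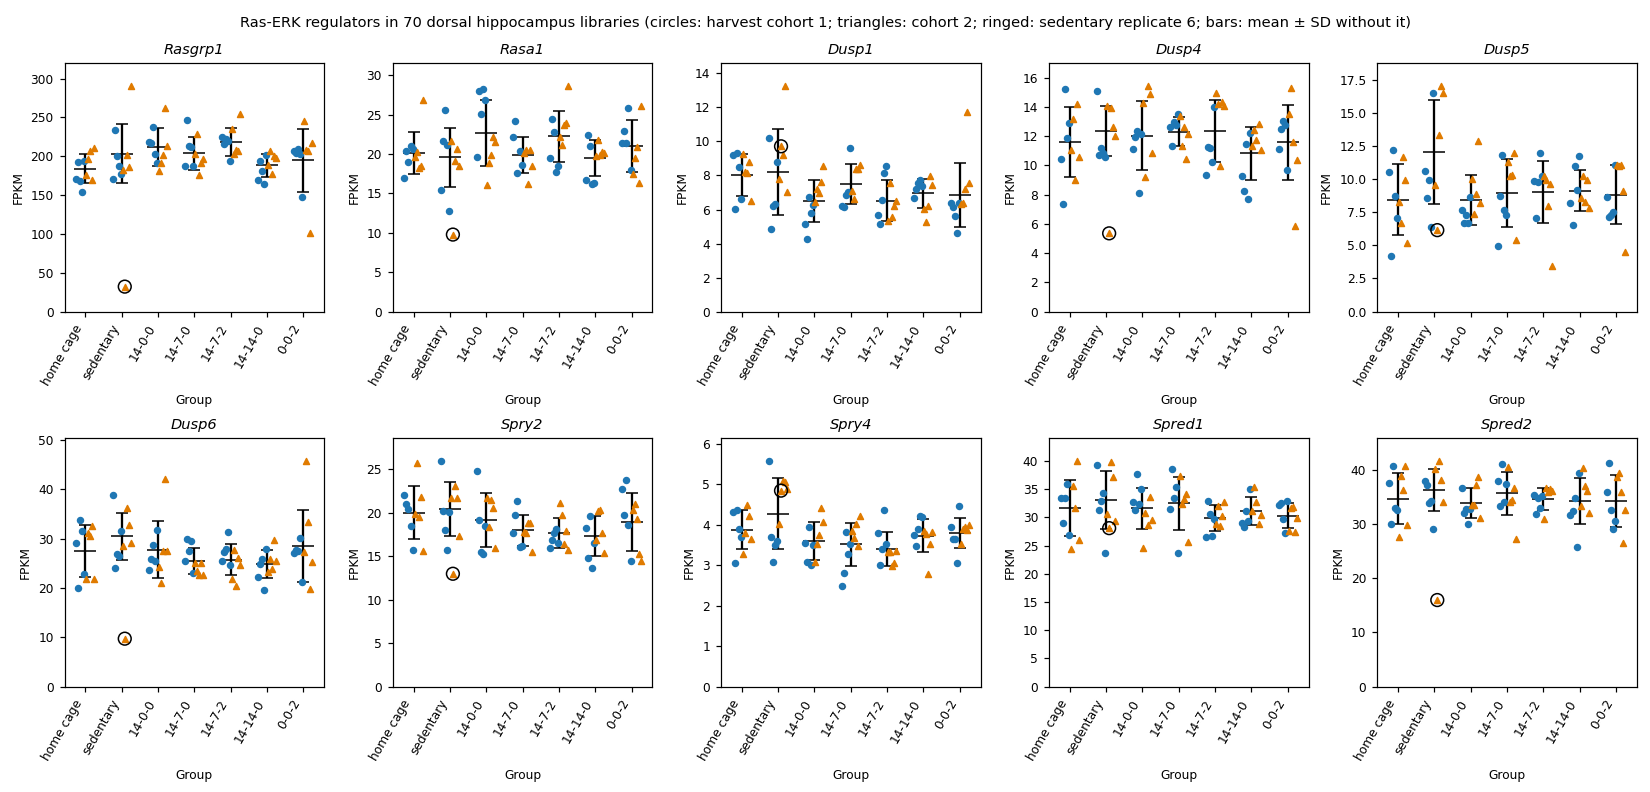
FPKM of each gene (vertical axis, from 0) in the 10 libraries of each group (horizontal axis); circles are harvest cohort 1, triangles cohort 2, and bars give the mean ± SD, in sedentary without replicate 6. The ringed sedentary replicate 6 sits at 32.1 FPKM for Rasgrp1, while the other 69 libraries lie between 101.7 and 290.8.

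Sedentary replicate 6 was the lowest of all 70 libraries for 6 of the genes. Its Rasgrp1 was 32.1 FPKM and its Spred2 16.0 FPKM. Its Dusp6 was 9.74, its Rasa1 9.77, its Spry2 13.0 and its Dusp4 5.35 FPKM. Dusp1 at 9.72 and Spry4 at 4.85 were instead near the top, above 66 and 65 of the other libraries. Which tests passed therefore depended in part on this one control.

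Against sedentary, 5 of 60 gene tests passed an unadjusted p under 0.05, all of them lower in the exercise group and all of Dusp1 or Spry4. This was 2 of 10 genes in 14-0-0, where 9.15% of the 12994 genes tested passed, 1 of 10 in 14-7-0 (3.26% of all genes) and 2 of 10 in 14-7-2 (4.39%). None of the 10 passed in 14-14-0 (4.95%), 0-0-2 (2.37%) or home cage (2.3%). No gene of the 10 passed after adjustment over all genes, with limma or with the Cyber-T test that the study used. Without sedentary replicate 6, 11 tests passed, again all lower, and they were of other genes in part: Dusp5, Dusp6, Spry2 and Spry4. The counts were then 1 of 10 in home cage (3.15% of all genes), 1 in 14-0-0 (10.3%), 3 in 14-7-0 (3.29%), 3 in 14-7-2 (3.58%), 2 in 14-14-0 (6.97%) and 1 in 0-0-2 (2.52%). The median log2 difference of the 10 genes lay between -0.10 in 14-14-0 and 0.0078 in home cage, with medians of all tested genes between -0.010 and 0.0083. Without that library it lay between -0.18 in 14-14-0 and -0.054 in 14-7-0, with medians of all tested genes between -0.024 and -0.0025. All 6 comparisons share the sedentary libraries.

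The comparisons with sedentary were repeated within each harvest cohort, with 5 libraries a group. In cohort 1 alone, 0 of 60 tests were lower and 1 was higher in limma, against 1.02% lower and 2.15% higher over all genes in the same 6 comparisons. In cohort 2 alone, 8 were lower and 1 higher (1.37% and 1.27% of all). Without sedentary replicate 6, which belongs to cohort 2, 16 were lower and 1 higher there (1.93% and 1.83% of all). A difference between cohorts was itself called at an unadjusted p under 0.05 in 3 of 60 interaction tests with all libraries, where 1.58% of the tests over all genes were. With that library left out it was called in 2 of 60 (2.05% over all genes), and in none after adjustment under either setting.

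**Figure D2:**
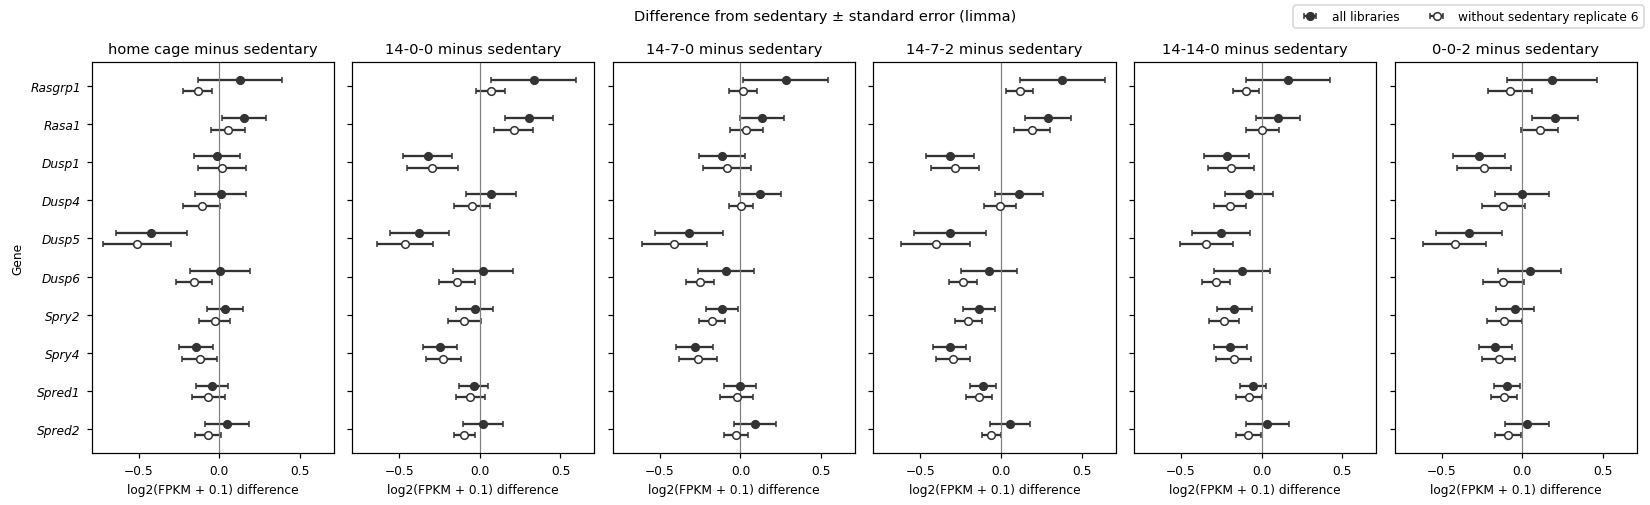
Difference in log2(FPKM + 0.1) from sedentary (horizontal axis) ± its standard error for each gene (vertical axis), by group, with all libraries (filled) and without sedentary replicate 6 (open). Spry4 and Dusp5 lie below 0 in each panel under both, while Rasgrp1 lies above 0 in all 6 only with sedentary replicate 6 included.

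Spry4, a Sprouty inhibitor of the pathway upstream of ERK, had the smallest p of the 10 with all sedentary libraries, while Dusp6 had it without replicate 6. In sedentary libraries it ran from 3.07 to 5.59 FPKM with a median of 4.43. In 14-7-2 it ran from 2.98 to 4.38 with a median of 3.34, in 14-7-0 from 2.48 to 4.23 with a median of 3.61, and in 14-0-0 from 3.01 to 4.42 with a median of 3.55. All 10 libraries of each of these groups lay below the sedentary median, as did 10 of 10 in 14-14-0 and 9 of 10 both in 0-0-2 and in home cage, and the ranges overlapped. Against the median without sedentary replicate 6, the numbers below were 9 in 14-7-2 and 0-0-2, 8 in 14-7-0, 14-0-0 and 14-14-0, and 6 in home cage.

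The log2 difference of Spry4 was -0.32 ± 0.10 (SE) in 14-7-2 (p = 0.0057, 19.9% lower on the log2(FPKM + 0.1) scale), -0.28 ± 0.12 in 14-7-0 (p = 0.0227) and -0.25 ± 0.11 in 14-0-0 (p = 0.0301). It was -0.19 ± 0.10 in 14-14-0 (p = 0.0760), -0.17 ± 0.10 in 0-0-2 (p = 0.111) and -0.14 ± 0.11 in the home cage group (p = 0.195). With that control left out, the value in 14-0-0 was -0.23 with p = 0.0501, and 14-7-2 (p = 0.0106) and 14-7-0 (p = 0.0381) still passed. The 2 harvest cohorts did not give like values: in 14-7-2 the difference was -0.08 ± 0.16 in cohort 1 and -0.56 ± 0.10 in cohort 2. The change of the difference between cohorts was itself -0.48 ± 0.18 (limma interaction, p = 0.0187, adjusted p = 0.953). In 14-7-0 the cohorts gave -0.27 ± 0.18 and -0.30 ± 0.10, and in 14-0-0 -0.16 ± 0.15 and -0.34 ± 0.12.

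Dusp1 codes for a nuclear phosphatase of ERK, p38 and JNK, and is an immediate early gene that glucocorticoids also induce. Its sedentary range was 4.87 to 13.3 FPKM with a median of 8.29, the widest of any group. Its median was 6.61 in 14-0-0 (4.26 to 8.57) and 6.37 in 14-7-2 (5.15 to 8.56), and 9 of 10 libraries in each lay below the sedentary median. So did 10 of 10 in 14-14-0, 9 in 0-0-2, 6 in 14-7-0 and 5 in home cage, where Dusp1 did not pass. Against the median without sedentary replicate 6 the numbers were 9 in 14-0-0 and 8 in 14-7-2. In home cage the median was 8.33 (6.01 to 9.31).

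The log2 difference of Dusp1 was -0.32 ± 0.15 both in 14-0-0 (p = 0.0466) and in 14-7-2 (p = 0.0446). It was -0.27 ± 0.16 in 0-0-2 (p = 0.114), -0.22 ± 0.14 in 14-14-0 (p = 0.132), -0.11 ± 0.14 in 14-7-0 (p = 0.438) and -0.01 ± 0.14 in the home cage group (p = 0.928). Both calls were lost without sedentary replicate 6, where the difference was -0.29 in each (p = 0.0768 and 0.0744). In cohort 1 the 14-7-2 difference was -0.07 ± 0.21, and in cohort 2 it was -0.56 ± 0.17. In 14-0-0 it was -0.33 ± 0.20 in cohort 1 and -0.32 ± 0.16 in cohort 2. Dusp1 in 0-0-2 replicate 8 was 11.7 FPKM, and without this library, left out after its values were seen, the 0-0-2 difference was -0.36 (p = 0.0241).

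Dusp5, a nuclear phosphatase specific for ERK, was highest and most spread in sedentary, at 6.36 to 17.1 FPKM with a median of 10.6 in the 9 libraries without replicate 6. Its medians were 7.94 in 14-0-0 (6.68 to 12.9), 8.48 in home cage (4.20 to 12.2) and 8.87 in 0-0-2 (4.49 to 11.1). In 14-0-0, 9 of 10 libraries lay below the median of those 9. With all sedentary libraries no comparison of Dusp5 passed, the nearest being 14-0-0 with -0.38 ± 0.18 (p = 0.0547).

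Without sedentary replicate 6, Dusp5 fell by 0.46 on the log2 scale in 14-0-0 (SE 0.17, p = 0.0139), by 0.51 in the home cage group (SE 0.21, p = 0.0267) and by 0.42 in 0-0-2 (SE 0.19, p = 0.0440). The differences in 14-7-0, 14-7-2 and 14-14-0 were -0.41, -0.41 and -0.34, with p = 0.0581, 0.0729 and 0.0527. Of these 6 differences, that of home cage mice, which had neither wheel nor training, was the largest. Whether Dusp5 differed between home cage and the exercise groups was not tested. By cohort, the 14-0-0 difference was -0.42 ± 0.21 in cohort 1 (p = 0.0734) and -0.56 ± 0.21 in cohort 2 without replicate 6 (p = 0.0224). In home cage it was -0.30 ± 0.31 and -0.77 ± 0.26, and in 0-0-2 -0.26 ± 0.23 and -0.63 ± 0.29.

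Dusp6, the cytoplasmic phosphatase specific for ERK, gave calls only when the one library was left out. Its 9 remaining sedentary libraries ran from 24.0 to 38.8 FPKM with a median of 29.2. The medians were 25.2 in 14-14-0 (19.6 to 29.8), 25.1 in 14-7-0 (22.6 to 30.0) and 25.9 in 14-7-2 (20.5 to 31.4). In 14-14-0, in 14-7-0 and in home cage, 4 of 10 libraries lay below the lowest of the 9, and in each of the other 3 groups 2 did.

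With all sedentary libraries the 6 differences of Dusp6 lay between -0.12 and 0.05 on the log2 scale, with standard errors of 0.17 to 0.19, and none passed. Without sedentary replicate 6, Dusp6 fell by 0.29 in 14-14-0 (SE 0.09, p = 0.0039), by 0.25 in 14-7-0 (SE 0.08, p = 0.0075) and by 0.24 in 14-7-2 (SE 0.09, p = 0.0160). In 14-0-0 the difference was -0.14 (p = 0.209), in 0-0-2 -0.12 (p = 0.363) and in the home cage group -0.16 (p = 0.184). In 14-14-0 the cohorts gave like values, -0.28 ± 0.14 in cohort 1 (p = 0.0698) and -0.30 ± 0.09 in cohort 2 without replicate 6 (p = 0.0106). In 14-7-0 they gave -0.11 ± 0.13 and -0.41 ± 0.08, and in 14-7-2 -0.09 ± 0.13 and -0.39 ± 0.11.

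Spry2, the other Sprouty gene, showed a like pattern. The 9 sedentary libraries ran from 15.7 to 26.0 FPKM with a median of 20.2, against medians of 17.3 in 14-7-2 (15.7 to 21.2), 17.3 in 14-14-0 (13.7 to 20.3) and 17.7 in 14-7-0 (15.5 to 21.3). With all sedentary libraries no Spry2 test passed, and the smallest p was 0.128. Without replicate 6, Spry2 fell by 0.23 in 14-14-0 (SE 0.09, p = 0.0202), by 0.20 in 14-7-2 (SE 0.08, p = 0.0222) and by 0.18 in 14-7-0 (SE 0.08, p = 0.0464). In 14-0-0, 0-0-2 and home cage the differences were -0.10, -0.11 and -0.03, and none passed. By cohort, again without replicate 6, Spry2 gave -0.26 ± 0.14 and -0.21 ± 0.11 in 14-14-0, -0.21 ± 0.12 and -0.20 ± 0.11 in 14-7-2, and -0.12 ± 0.13 and -0.24 ± 0.10 in 14-7-0.

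Dusp4, a nuclear phosphatase, and the SPRED genes gave no call against sedentary with or without the library. Dusp4 medians lay between 11.4 in 14-14-0 and 12.6 in 14-7-0 and 14-7-2. Its largest difference without replicate 6 was -0.20 ± 0.10 in 14-14-0 (p = 0.0662). Spred1 medians lay between 30.0 in 14-7-2 and 33.4 in 14-7-0, and Spred2 medians between 33.1 in 14-0-0 and 35.7 in sedentary. The Spred2 difference in 14-7-2 without replicate 6 was -0.06, with a 95% interval of -0.18 to 0.06.

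Rasgrp1 and Rasa1 act in opposite directions on Ras. The study, from these same libraries, listed both as up-regulated in 14-0-0 and 14-7-2. Its sedentary means equal those with replicate 6 included, 186.3 and 18.6 FPKM, against 203.4 and 19.6 without it. Neither gene passed against sedentary in limma on the 20 libraries of a comparison. Rasgrp1 medians were 217.6 FPKM in 14-7-2 (193.5 to 254.5), 208.0 in 14-0-0 (181.5 to 261.8) and 187.1 in sedentary (32.1 to 290.8). Its log2 difference in 14-7-2 was 0.38 ± 0.26 (p = 0.159), and without sedentary replicate 6 it was 0.12 ± 0.08 (p = 0.177). In 14-0-0 the difference was 0.33 ± 0.26 (p = 0.219), and 0.07 ± 0.09 (p = 0.453) without the library. Without it, Rasgrp1 was at -0.10 in 14-14-0, -0.08 in 0-0-2 and -0.13 in the home cage group. A joint limma fit of all 7 groups, with sedentary replicate 6 included, called Rasgrp1 higher in 14-7-2 (p = 0.0232) and in 14-0-0 (p = 0.0462). Cyber-T as rewritten here called Rasgrp1 higher in neither group.

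Rasa1 medians were 22.5 FPKM in 14-7-2 (17.7 to 28.7), 21.9 in 14-0-0 (16.0 to 28.3) and 19.8 in sedentary (9.77 to 25.6). Its log2 difference was 0.31 ± 0.15 in 14-0-0 (p = 0.0535) and 0.29 ± 0.14 in 14-7-2 (p = 0.0513). Without sedentary replicate 6 these were 0.21 (p = 0.107) and 0.19 (p = 0.0982). Other tests with all libraries called Rasa1 higher in both groups, the joint limma fit with p = 0.0066 in 14-0-0 and 0.0098 in 14-7-2, and Cyber-T with 0.28 (p = 0.0291) and 0.26 (p = 0.0421). In cohort 1 alone the 14-0-0 difference was 0.43 ± 0.18 (p = 0.0386). The change of this difference from cohort 1 to cohort 2 was -0.25 ± 0.29 (limma interaction, p = 0.387). Without sedentary replicate 6 it was -0.46 ± 0.23 (p = 0.0579, adjusted p = 0.663).

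The exercise groups were also set against each other, which leaves the sedentary libraries out. Reactivating exercise after the 7-day delay was compared with the delay alone (14-7-2 with 14-7-0), and none of the 10 genes passed, against 5.39% of all genes. The closest were Dusp1 at -0.20 ± 0.10 (p = 0.0647) and Rasa1 at 0.16 ± 0.08 (p = 0.0705). Compared with the same 2 days of running alone (14-7-2 with 0-0-2), Spry4 was lower by a log2 difference of -0.15 ± 0.07 (p = 0.0456), 1 of 10 genes against 2.43% of all. Spry4 ran from 3.06 to 4.46 FPKM in 0-0-2 with a median of 3.88, and 9 of 10 libraries of 14-7-2 lay below that median. The difference was -0.05 ± 0.12 in cohort 1 and -0.25 ± 0.08 in cohort 2, and without 0-0-2 replicate 8 it no longer passed.

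For the delay after 14 days of running, none of the 10 genes differed between 14-0-0 and 14-7-0, where 5.63% of all genes passed. Between 14-0-0 and 14-14-0, Rasgrp1 was the 1 gene of 10 that passed, against 7.16% of all. It was higher without the delay, by 0.17 ± 0.06 on the log2 scale (p = 0.0137). In 14-14-0 it ran from 164.1 to 206.6 FPKM with a median of 191.1, and 5 of 10 libraries of 14-0-0 lay above that range. By cohort the Rasgrp1 difference was 0.23 ± 0.08 and 0.10 ± 0.10. Rasa1 stood beside it at 0.20 ± 0.10 with p = 0.0501, and gave 0.46 ± 0.13 in cohort 1 (p = 0.0044) and -0.06 ± 0.09 in cohort 2.

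A single test over all 7 groups (limma F test) passed for Spry4 (p = 0.0151) and Dusp1 (p = 0.0390), 2 of 10 genes against 7.63% of all. Adjusted over all genes these were 0.489 and 0.614, and without sedentary replicate 6 Spry4 alone passed (p = 0.0354). Between the harvest cohorts, with group in the model, Dusp1 was higher in cohort 2 by 0.15 ± 0.07 on the log2 scale (p = 0.0205, adjusted p = 0.303). It was the 1 gene of 10 that passed, against 11.9% of all genes.

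Of 65 further genes of the pathway, from receptors and adaptors to ERK targets, 60 were measured above the minimum. Against sedentary, the numbers higher and lower at an unadjusted p under 0.05 were 0 and 2 in 14-0-0, 0 and 0 in 14-7-0, 1 and 4 in 14-7-2, 1 and 0 in 14-14-0, 0 and 1 in 0-0-2, and 1 and 1 in home cage. The share of the 60 that passed was 8.33% in 14-7-2, where 4.39% of all genes did, and 3.33% in home cage (2.3% of all). It was below that of all genes in 14-0-0, at 3.33% against 9.15%, and in the other 3 comparisons. None passed after adjustment in limma. The adaptor Gab1, which links receptors to SHP2 and Ras, was lower in 14-0-0 by 0.32, in 14-7-2 by 0.31 and in 0-0-2 by 0.38 on the log2 scale, with p = 0.0332, 0.0280 and 0.0243. Without sedentary replicate 6 it passed in 14-7-2 (p = 0.0427) and 0-0-2 (p = 0.0459) and not in 14-0-0. It was also lower in 14-7-2 than in 14-7-0, by 0.25 (p = 0.0104), where 5.39% of all genes passed. At most the 3 pathway genes of smallest p are named there, and the number of the 60 that passed is not given. Picked in this way, the named genes do not set the pathway apart from all genes. Beside Gab1 these were Ptpn11, which codes for SHP2 itself (0.10 lower, p = 0.0053), and the ETS factor gene Etv1 (0.46 lower, p = 0.0149). The ETS factors Etv4 and Etv5, which are transcribed downstream of ERK, were lower in 14-0-0 (Etv4, log2 difference -0.34, p = 0.0144) and in 14-7-2 (Etv5, -0.23, p = 0.0382). Both still passed without sedentary replicate 6 (p = 0.0201 and 0.0132). The adaptor gene Shc1 was higher in 14-14-0 by 0.24 (p = 0.0139), and 0.24 (p = 0.0211) without that library. Without it, the numbers higher and lower were 0 and 2 in 14-0-0, 0 and 0 in 14-7-0, 0 and 2 in 14-7-2, 1 and 1 in 14-14-0, 0 and 1 in 0-0-2, and 2 and 1 in home cage. The share was then 3.33% in 14-7-2, against 3.58% of all genes, and 5.0% in home cage against 3.15%.

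Neuronal activity induces immediate early genes within minutes. Of 11 measured genes of a list of 12 (Fos, Fosb, Junb, Egr1 to Egr4, Arc, Npas4, Nr4a1, Ier2 and Btg2), 6 were lower in 14-0-0 and in 14-7-2, 4 in 14-7-0, 5 in 14-14-0 and 3 in 0-0-2, at an unadjusted p under 0.05 in limma. Of all tested genes, 3.04% were lower in 14-0-0, 2.32% in 14-7-2, 1.66% in 14-7-0, 1.75% in 14-14-0 and 1.23% in 0-0-2. With that control left out the numbers were 7 in 14-0-0 and in 14-7-2, 3 in 14-7-0, 6 in 14-14-0 and 4 in 0-0-2, against 3.36%, 1.83%, 1.66%, 2.44% and 1.28% of all genes. In home cage none was lower, where 1.08% of all genes were (1.31% without that library), and 1 was higher, with or without it, and none of these calls passed adjustment. The median log2 difference of the list was -0.60 in 14-0-0, -0.59 in 14-7-2, -0.46 in 14-7-0 and -0.47 in 14-14-0. For 0-0-2 it was -0.43, and for home cage -0.22. Fos was lower in 14-7-2 by 1.04 ± 0.27 on the log2 scale (p = 0.00105) and Egr1 by 0.67 ± 0.14 (p = 0.000139). The summed level of the list had a median of 234.6 FPKM in sedentary without replicate 6 (142.6 to 399.0), 137.8 in 14-0-0 (112.2 to 262.9) and 152.0 in 14-7-2 (122.8 to 204.0). In home cage it was 206.1 (114.6 to 320.7). The part of these genes in the differences of the 10 regulators was not tested. A list of 10 glucocorticoid-responsive genes, of which 9 were measured, had a median summed level of 155.4 FPKM in sedentary without replicate 6. It was 121.4 in home cage and 151.3 to 171.6 in the exercise groups. In limma, 4 of the 9 were lower in home cage, where 1.08% of all genes were. Without sedentary replicate 6, 6 were lower there (1.31% of all) and 1 was higher. In each exercise group 0 were lower and at most 1 was higher, and none passed adjustment. Beside the higher counts of both lists, the share of all genes that passed in either direction ran from 2.37% in 0-0-2 to 9.15% in 14-0-0. In home cage it was 2.3%, or 3.15% without sedentary replicate 6.

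Among mice of the same group, the regulators were compared with an activity score, the mean over the measured immediate early genes of the log2 value minus its group mean. Over 69 libraries, 20 relations were tested by permutation, 10 with this score and 10 with a glucocorticoid score. The permutations treated the libraries as independent. Same-numbered libraries of different groups were alike in part, as given in the last section, and the p-values do not allow for it. Dusp6 followed activity most closely, with r = 0.66 and Spearman's rho = 0.65 (both p = 1e-05, the smallest that 100000 permutations can give, adjusted p = 5e-05). It was 0.64 without the 2 libraries of most extreme score, 0.69 within harvest cohort 1 and 0.66 within cohort 2. Here and below, r by cohort kept the centring on group means over both cohorts. Dusp5 gave r = 0.60 (rho 0.59, 0.60 and 0.58 by cohort) and Dusp1 r = 0.54 (rho 0.54, 0.65 and 0.39 by cohort), with the same permutation p for r. Such values were not rare: 7.23% of the other tested genes had a higher r than Dusp6, 10.2% than Dusp5 and 12.9% than Dusp1.

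**Figure D3:**
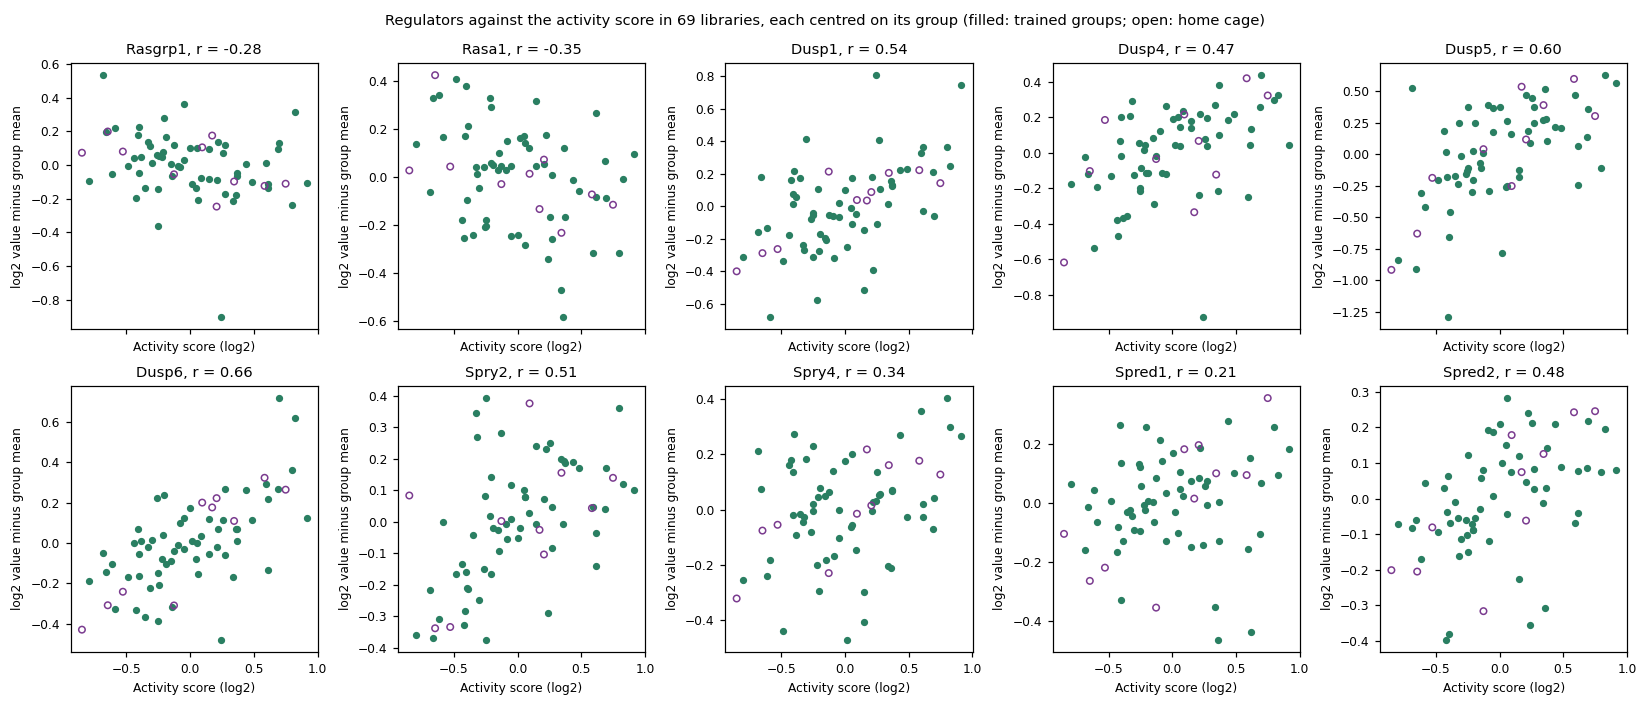
Group-centred log2(FPKM + 0.1) of each gene (vertical axis) against the activity score (horizontal axis, log2 scale) in 69 libraries, with trained groups filled and home cage open. The points rise for Dusp6 (r = 0.66) and Dusp5 (r = 0.60) and fall for Rasa1 (r = -0.35).

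Spry2 (r = 0.51, rho 0.54), Spred2 (r = 0.48, rho 0.56) and Dusp4 (r = 0.47, rho 0.50) also rose with the activity score, with permutation adjusted p = 5e-05, 8e-05 and 0.000233 for r. By cohort, r was 0.41 and 0.62 for Spry2, 0.37 and 0.55 for Spred2, and 0.57 and 0.35 for Dusp4. Spry4 was weaker at r = 0.34 (rho 0.29, permutation adjusted p = 0.0102), with 0.47 in cohort 1 and 0.12 in cohort 2. Of the other tested genes, 14.3% had a higher r than Spry2, 15.8% than Spred2, 16.0% than Dusp4 and 22.2% than Spry4. Spred1 did not pass at r = 0.21 (permutation adjusted p = 0.161), while its rho of 0.27 did (permutation adjusted p = 0.0475). By cohort, its r was 0.0005 and 0.44. The activator and the GTPase activating protein went the other way. Rasa1 gave r = -0.35 (rho -0.33, permutation adjusted p = 0.0102) and Rasgrp1 r = -0.28 (rho -0.33, permutation adjusted p = 0.0405), and the r of Rasgrp1 was -0.17 over all 70 libraries. Both kept a negative r within each cohort (-0.38 and -0.30 for Rasa1, -0.39 and -0.26 for Rasgrp1). Of the other tested genes, 84% had a higher r than Rasa1 and 76% than Rasgrp1, so lower values were not rare.

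With the glucocorticoid score no r passed adjustment. Dusp1, known as a glucocorticoid target, had r = 0.19 (rho 0.20, permutation p = 0.120, adjusted p = 0.200). The r of the other genes lay between -0.23 for Rasgrp1 and 0.12 for Dusp5. For Rasgrp1, rho was -0.33 with a permutation adjusted p of 0.0152 where r had 0.119.

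The 10 genes were also related to each other in the same 69 libraries. Of 45 pairs, 18 were positively and 4 negatively correlated at an adjusted permutation p under 0.05. Here too the permutations treated the libraries as independent and did not allow for likeness of same-numbered libraries. The share of all pairs of tested genes that would pass was not tested, so these counts do not set the 10 genes apart. The median size of r was 0.267, against 0.218 over all pairs of tested genes. The highest were Dusp4 with Spred2 (r = 0.59, rho 0.59), Dusp1 with Spry4 (r = 0.57, rho 0.58) and Dusp4 with Dusp6 (r = 0.55, rho 0.44), each with a permutation adjusted p of 6.4e-05. Within cohorts 1 and 2 these were 0.57 and 0.59, 0.69 and 0.36, and 0.51 and 0.60. Without the 2 libraries most extreme on the first gene they were 0.53, 0.59 and 0.46.

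All 4 negative pairs joined Rasa1 or Rasgrp1 to an inducible brake. Rasa1 opposed Dusp5 (r = -0.53, rho -0.54), Dusp1 (r = -0.47, rho -0.48) and Spry4 (r = -0.43, rho -0.48), with permutation adjusted p = 6.4e-05, 0.00025 and 0.000868. Without the 2 most extreme libraries r was -0.51, -0.50 and -0.58. The pair of Rasa1 and Spry4 rested on cohort 1, with r = -0.64 there and -0.08 in cohort 2, while Rasa1 and Dusp5 gave -0.56 and -0.52. Rasgrp1 and Dusp1 had r = -0.47 (rho -0.40, permutation adjusted p = 0.000327), and -0.35 without the 2 extreme libraries. In 0-0-2 replicate 8, Rasgrp1 and Dusp4 were the lowest of the 69, at 101.7 and 5.88 FPKM. Without this library, Rasgrp1 with Dusp1 was -0.33 and Rasgrp1 with Dusp4 moved from 0.31 to 0.05.

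**Figure D4:**
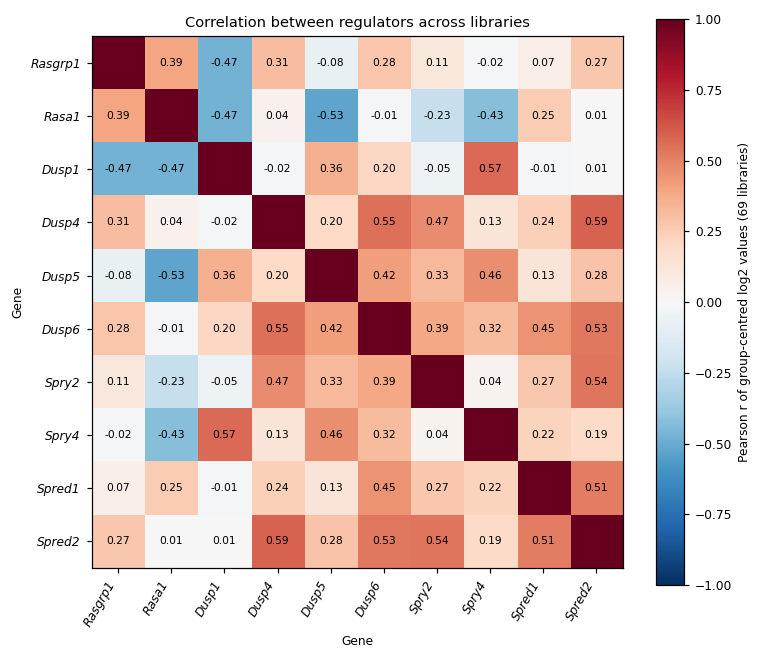
Pearson's r of group-centred log2 values over 69 libraries for each pair of the 10 genes (both axes), colored from -1 (blue) to 1 (red). Dusp4, Dusp6, Spry2 and Spred2 form a positive block with r from 0.39 to 0.59, and Rasa1 is negative with Dusp1, Dusp5 and Spry4.

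The genes most like each regulator, by r over the same 69 libraries, divided the set further. The 3 most like Dusp6 were the immediate early genes Nr4a1 (0.73), Arc (0.69) and Egr3 (0.66). Spry4 was closest to the adaptor gene Crkl (0.71), followed by Fosb (0.69) and the chaperone gene Dnajb1 (0.68). Dusp5 was closest to Ajap1 (0.81), Pacsin1 (0.78) and Zdhhc7 (0.77), and Dusp1 to Zfp467 (0.72), Camk2n2 (0.71) and Zfp703 (0.70). Dusp4 was closest to Lingo3 (0.79), Orai2 (0.75) and Bcl11b (0.74), and Spry2 to B4galt5 (0.75), Inf2 (0.74) and Nat8l (0.74). Rasgrp1 was closest to Epha4 (0.89), Nckap1 (0.87) and Slc24a2 (0.87), and Rasa1 to Wapal (0.86), Top2b (0.85) and Tmem161b (0.85). For Spred1 these were Zbtb41 (0.78), Pum2 (0.77) and Rybp (0.76), and for Spred2 Ncoa1 (0.80), Sipa1l1 (0.80) and Nhsl1 (0.80).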

How the data were processed

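Per the labels, libraries were made from RNA of the dorsal hippocampus with the TruSeq kit. The authors deposited FPKM values, which they computed with the Tuxedo protocol after alignment of 50 bp single-end reads by ELAND v2e plus Bowtie, keeping unique alignments of at most 2 mismatches; the submitters' processing notes name Bowtie, Cuffnorm and mm10. Versions of Bowtie and Cuffnorm are not given in the sources used here. Read totals in the study's supplement name libraries by lane and barcode, not by group, and were not used here. One library listed there had far fewer reads than the others listed, and its group cannot be told from those names. FPKM hold no counts, so no interval for counting error was made. FPKM of overlapping or antisense genes may share reads.

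Tests used log2(FPKM + 0.1) of 12994 genes whose mean reached 1 FPKM, and left out 11352. Groups were compared with limma 3.58.1 in R 4.3.3 (two-sided, trend) on the 20 libraries of a comparison, without covariates, called at an unadjusted p under 0.05 as in the study, with Benjamini-Hochberg adjustment over all tested genes. The limma script was checked on simulated data. Correlations used 100000 permutations (two-sided), adjusted over 20 relations or 45 pairs. Motif shares and figures used Python 3.11.15 and matplotlib 3.10.9. The members and lists were chosen with earlier results of these data known. All 10 members are named; further pathway genes were named from those called, the 3 of smallest p at most in a comparison, and the 3 most alike genes were named per member. Leaving out 0-0-2 replicate 8, and sedentary replicate 6 within cohort 2, was added after their values were seen. The study's methods give 1 mouse per library.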

Additional observations from a re-analysis of the deposited data

Results flagged for a closer look

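In 11 of 70 sets of 10 libraries (10 genes in 7 groups), 1 library stood apart from the rest of its group by Dixon's criterion, where chance gives about 1 in 20, or 3.5. Sedentary replicate 6 accounted for 4 of them, with low Rasgrp1 (32.1 FPKM), Dusp4 (5.35), Dusp6 (9.74) and Spred2 (16.0). Library 0-0-2 replicate 8 had high Dusp1 (11.7 FPKM) and low Dusp4 (5.88). The others were low Dusp5 in 14-7-2 replicate 9 (3.46 FPKM) and 0-0-2 replicate 9 (4.49), low Spry4 in 14-14-0 replicate 7 (2.78), low Spred2 in 14-7-0 replicate 9 (27.2) and high Rasa1 in home cage replicate 9 (26.9). Differences from sedentary that changed between harvest cohorts were tested for the 10 genes in 6 comparisons with a limma interaction term. Of 60 tests, 3 had an unadjusted p under 0.05, where 1.58% of the tests over all genes did, and 0 passed adjustment over all genes; they were Spry4 in 14-7-2 and in 14-14-0 and Dusp1 in 14-14-0.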

How the results depend on the processing

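Of 60 gene tests against sedentary, 0 were higher and 5 lower at an unadjusted p under 0.05. Higher and lower counts were 1 and 6 with median ratio scaling, 1 and 6 with harvest cohort as a covariate, 4 and 8 in a joint fit of 7 groups, and 2 and 6 with Cyber-T. They were 1 and 0 in cohort 1 alone and 1 and 8 in cohort 2 alone. Leaving out sedentary replicate 6, 14-7-0 replicate 4 or 0-0-2 replicate 8, and replicate 6 within cohort 2, gave 0 to 1 higher and 5 to 16 lower; without replicate 6 the lower count was 11. Of 40 tests between exercise groups, 1 was higher and 1 lower. The higher count was 2 with a pseudocount of 1, a minimum mean of 0.1 FPKM, the cohort covariate or Cyber-T, 3 in cohort 1 and 0 in the joint fit. The lower count was 0 with median ratio scaling, Cyber-T or the joint fit, 2 with the covariate, 3 in cohort 2, and 0 to 2 when 1 library was left out; without 0-0-2 replicate 8 it was 0. The test over all groups called 1 to 2 genes when 1 library was left out. Relations with the activity score passed for 9 genes, and for 5 in cohort 2 alone, where values were centred anew on the group means of that cohort. Those 5 included Spred1 (r = 0.49, permutation adjusted p = 0.013), which was not among the 9. The cause of these changes was not tested.

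With a replicate block, 2 were higher and 7 lower against sedentary, and 2 and 2 between exercise groups. The correlation of same-numbered libraries exceeded 0.1 in 2 to 7 of 10 pairs per comparison. Its median was above that of other pairs of the same cohort in all comparisons but 14-7-2 with sedentary (-0.0057 against 0.0080). It was 0.158 against -0.030 in 14-7-0 with sedentary, and 0.020 against -0.021 in 0-0-2 with sedentary. Whether the numbers mark pairs of mice was not tested, and the main tests left them out. No gene changed direction among values called, and 106 uncalled values changed sign. No gene of the 10 passed adjustment under any of these settings in limma or Cyber-T. FPKM hold no counts, so the precision that read depth gives each value was not estimated.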
